A study of Mus musculus with 24 samples.

Results

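The levels of 4 miRNAs on a mouse panel, mmu-miR-26a, mmu-miR-26b, mmu-miR-101a and mmu-miR-101b, were followed across a mouse model of metastatic mammary carcinoma. They were chosen by name as the miR-26 and miR-101 families, both known for repressing the histone methyltransferase EZH2, and all 4 were found among the 566 mouse miRNAs on the panel. The samples numbered 24. JygMC(A) mouse mammary carcinoma cells carrying GFP and luciferase were grown as monolayers (n = 2) or as 3D-spheres, carried to the third generation on ultra-low adherent plates (n = 2). Female BalbC nude mice, several weeks of age, provided areas of primary tumor (PT) with carcinoma (n = 5) or EMT-like histology (n = 7), lung metastases (n = 4), normal mammary gland (NMG, n = 2) and normal lung parenchyma (n = 2), all laser captured. EMT stands for epithelial to mesenchymal transition, and the EMT-like areas are the spindle cell regions of the tumors. Every tumor sample derives from injection of the same cell line into the mammary fat pad of athymic mice, which lack mature T cells. Per the paper, this line came from a spontaneous mammary carcinoma of a Chinese wild mouse and has a mammary tumor virus insertion at Notch4. Tumor samples and the normal tissue of the host thus differ in strain and genotype as well as in malignancy. The 16 tumor areas came from 8 labelled sources, of which a single source names 3 animals, so several carcinoma, EMT-like and metastasis samples share an animal.

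A miRNA is loaded into an Argonaute protein and pairs with messenger RNAs mainly through its seed, bases 2 to 8, which lowers the translation and stability of those targets. EZH2 is the catalytic subunit of Polycomb repressive complex PRC2 and places the repressive methyl marks on lysine 27 of histone H3. Both families are best known as negative regulators of EZH2, and loss of miR-101 with gain of EZH2 has been described in several carcinomas. The messenger RNA of Ezh2 was not measured by this panel.

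The mature sequences are shown because the seeds decide which targets the members share and because the paralogs are hard to tell apart. They were taken from RefSeq (GRCm38.p6), where all 4 members matched, and are written 5′ to 3′ with the seed in capitals.
mmu-miR-26a: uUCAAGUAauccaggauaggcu
mmu-miR-26b: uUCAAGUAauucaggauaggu
mmu-miR-101a: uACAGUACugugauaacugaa
mmu-miR-101b: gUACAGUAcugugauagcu
The panel names carry no arm, and the 5p product of miR-26 and the 3p product of miR-101 were taken as the arms meant. The miR-26 members share the seed UCAAGUA. Counted from the 5′ end of miR-26a, they differ by C11U and C21U over 21 aligned bases, and miR-26a has 1 further base. In RefSeq miR-101b begins 1 base upstream of miR-101a, so the seed read at the same positions is shifted, UACAGUA against ACAGUAC. Counted from the 5′ end of miR-101a, the 18 aligned bases differ by A16G. No other miRNA on the panel had a seed identical to that of a member among the 437 of 566 panel names that matched a RefSeq mature sequence. How far the probe of each paralog separates it from the other was not given in the sources used here, so a value of either paralog may hold signal of its partner.

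The members come from 5 genes on 5 chromosomes. Mature miR-26a is made by Mir26a-1 (chr9:119031811-119031832, plus strand), within the span of Ctdspl, and by Mir26a-2 (chr10:126995543-126995564, plus strand), within the span of Ctdsp2. The panel cannot tell these genes apart. Mir26b (chr1:74394324-74394344, plus strand) lies within Ctdsp1. Mir101a (chr4:101346957-101346977, minus strand) lies within the span of the transcript gene E130102H24Rik, and Mir101b (chr19:29135338-29135356, plus strand) within Rcl1. Ctdspl, Ctdsp1 and Ctdsp2 encode small phosphatases that act on the C-terminal domain of RNA polymerase II, and Rcl1 encodes a factor of ribosomal RNA processing. The table used gives gene spans and not exons.

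Deposited values are counts from which the background of the lane, the average over its 6 negative controls, was taken off. The sum of the miRNA values was 110552 to 183539 in PT areas, 61497 to 114004 in metastases, 24418 to 44953 in the cultures, 525225 to 559660 in NMG and 589588 and 2334955 in normal lung. Lanes were therefore brought to a common scale by TMM (trimmed mean of M-values), which gives the normalized values below. The detection limit was set for each lane at 2 SD of the negative controls over their mean, which came to 4 to 21.4 counts. Tests used limma on log2(normalized value + 1) in a single fit of all 24 samples, with Benjamini-Hochberg adjustment over 583 probes, and those with an adjusted p under 0.05 were called. The spread measured is that between these samples. The descriptions of the 4 normal samples hold the words New Sample, which no tumor or culture has, so whatever this marks and normal tissue cannot be told apart.

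Across the series each member had its highest mean in normal lung and its next highest in NMG. The normalized level of mmu-miR-26a was 323 ± 1.77 (SD, n = 2) in normal lung, 136 ± 88.6 (SD, n = 2) in NMG, 40.5 ± 12.3 (SD, n = 7) in EMT-like samples, 30.1 ± 7.48 (SD, n = 5) for carcinoma and 29.2 ± 10.8 (SD, n = 4) in metastases. It was not detected in any of the 4 cultures. The 3 tumor groups overlapped in this order, and the NMG samples lay apart from each other, at 72.9 and 198, but above every tumor sample. The level of mmu-miR-26b was 1235 ± 41.8 (SD, n = 2) in normal lung, 628 ± 41.4 (SD, n = 2) in NMG, 149 ± 51.5 (SD, n = 5) in carcinoma, 120 ± 29.6 (SD, n = 4) in lung metastasis, 111 ± 24.9 (SD, n = 7) in EMT-like samples, 35.9 ± 39.3 (SD, n = 2) in monolayers and 29.4 ± 10.1 (SD, n = 2) in spheres. Normal lung, NMG, the tumor groups together and the cultures formed 4 ranges for miR-26b that did not overlap, while the tumor groups overlapped among themselves. How many of all probes formed such ranges was not counted.

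The level of mmu-miR-101a was 190 ± 17.0 (SD, n = 2) in normal lung and 98.5 ± 50.2 (SD, n = 2) in NMG. In the tumors it was 13.1 ± 8.72 (SD, n = 7) in EMT-like samples, 7.76 ± 4.66 (SD, n = 5) for carcinoma and 3.94 ± 2.71 (SD, n = 4) in lung metastasis. Most of these tumor values are not distinct from background, since miR-101a was detected in 4 of 7 EMT-like areas, 1 of 5 carcinoma areas, 0 of 4 metastases and 0 of 4 cultures. The level of mmu-miR-101b varied least, from 152 ± 1.14 (SD, n = 2) in normal lung and 107 ± 40.1 (SD, n = 2) in NMG to 49.4 ± 9.18 (SD, n = 4) in lung metastasis, 42.8 ± 6.39 (SD, n = 5) for carcinoma and 37.8 ± 15.3 (SD, n = 7) for the EMT-like samples. In culture miR-101b was 31.3 ± 4.83 (SD, n = 2) in spheres and 31.0 ± 10.9 (SD, n = 2) in monolayers, within the range of the EMT-like areas, and was detected in 1 of 2 samples of each. It was detected in all 16 tumor areas.

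**Figure D1:**
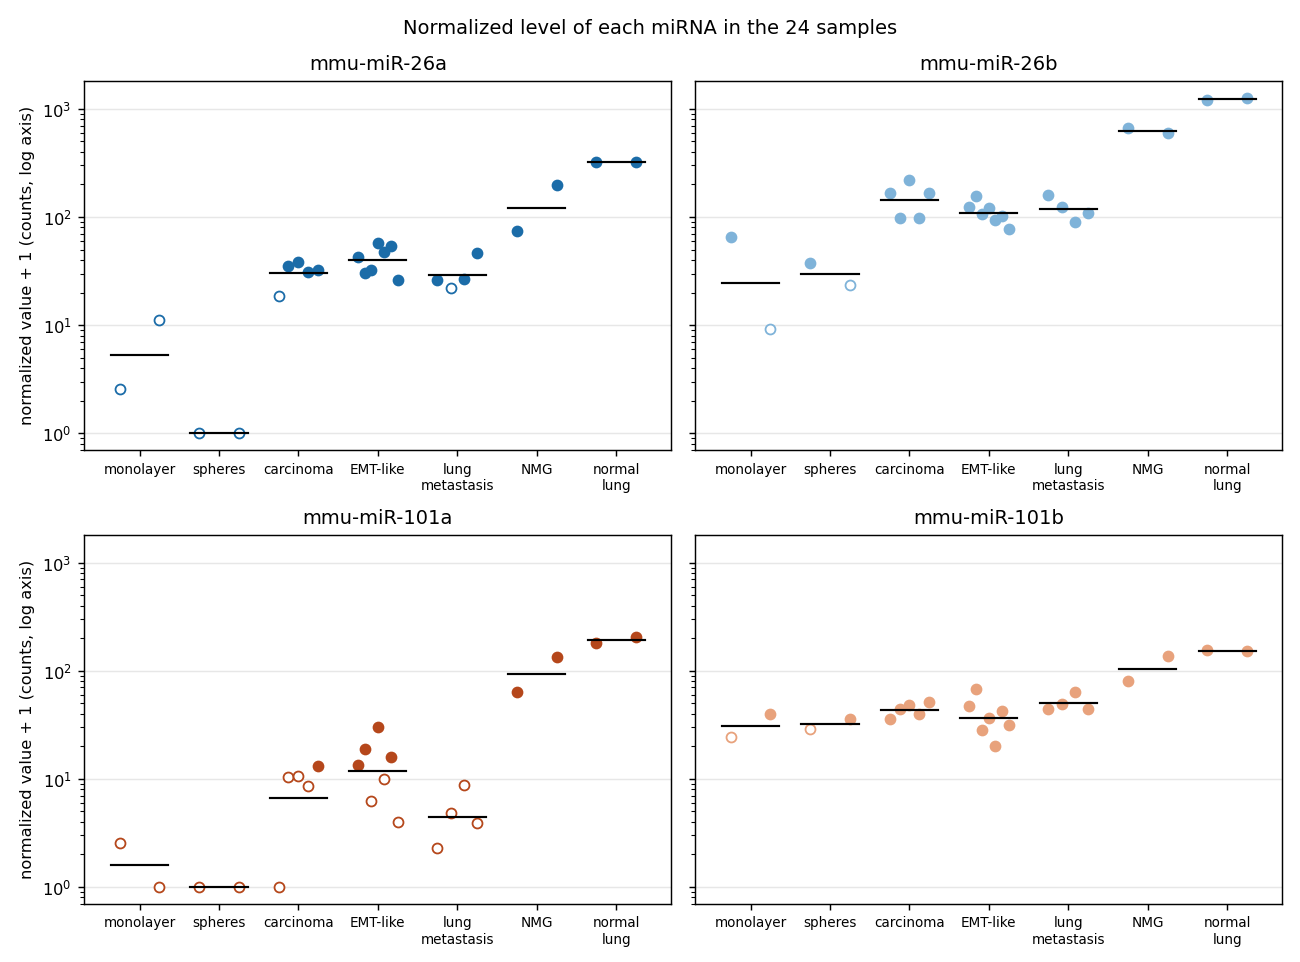
Each point is a sample, placed by group on the x axis and by normalized value + 1 (counts, log axis) on the y axis, with 1 panel per miRNA. Filled points are above the detection limit of the lane, open points are not, and black lines mark the mean on the log scale. The 4 normal samples lie above all 16 tumor areas in every panel, and most miR-101a points of tumors are open. Other probes were not counted for such a separation.

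The comparison of tumor areas with NMG asks how the malignant tissue differs from the gland in which it grew. The injected cells and the host gland also differ in strain, which cannot be told apart from malignancy here. All 4 members were called lower in carcinoma than in NMG, where 29.3% of all 583 probes were called. For miR-26a the 5 carcinoma samples measured 17.7, 34.3, 37.3, 30.0 and 31.3, and the NMG samples 72.9 and 198. Every carcinoma value lay below both NMG values, a log2 fold change of -2.00 (standard error, SE, 0.50, adjusted p in limma = 0.00480), or 4.01-fold lower. For miR-26b the carcinoma samples measured 166, 96.9, 217, 97.4 and 165 against 658 and 599 in NMG. The groups did not overlap and the NMG samples were close, with a log2 fold change of -2.14 (SE 0.49, adjusted p in limma = 0.00213), or 4.42-fold lower.

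For miR-101a the carcinoma samples measured 0, 9.45, 9.57, 7.49 and 12.3, of which the last alone was above its detection limit, against 63.0 and 134 in NMG. The fitted log2 fold change of -3.82 (SE 0.88, adjusted p in limma = 0.00228) had the widest error of the 4 members, and 4 of its 5 carcinoma values lie under the limit. For miR-101b the carcinoma samples measured 34.4, 43.7, 46.9, 38.7 and 50.4 against 79.1 and 136 in NMG. All were detected, the groups did not overlap, and the log2 fold change was the smallest of the 4 at -1.27 (SE 0.38, adjusted p in limma = 0.0150), or 2.41-fold lower. NMG replicate 1 was the lower NMG sample for miR-26a, miR-101a and miR-101b, and the higher for miR-26b.

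All 4 members were also called lower in EMT-like areas than in NMG, where 24.9% of all probes were called. The same NMG samples serve both comparisons. Over the 7 EMT-like areas miR-26a ran from 24.9 to 56.7 with a median of 42.1, below both NMG samples, with a log2 fold change of -1.61 (SE 0.48, adjusted p in limma = 0.0158). The range of miR-26b was 76.9 to 154 with a median of 106, and its log2 fold change of -2.52 (SE 0.47, adjusted p in limma = 0.000285) was 5.74-fold lower. That is the smallest adjusted p of the members in either comparison with NMG. The range of miR-101a was 3.02 to 28.8 with a median of 12.4, and its log2 fold change was -2.99 (SE 0.84, adjusted p in limma = 0.0105). The range of miR-101b was 19.0 to 66.1 with a median of 35.6, and its log2 fold change was -1.52 (SE 0.36, adjusted p in limma = 0.00303). No EMT-like sample reached the lower NMG sample for any member. The share of all probes that separated from NMG in this way, here or in carcinoma, was not computed.

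The median log2 fold change of the 4 members against NMG was -2.07 for carcinoma and -2.06 for EMT-like areas. Over all 583 probes the medians were -0.68 and -0.30, with 139 probes called lower and 32 higher in carcinoma and 119 lower and 26 higher for EMT-like areas. The 583 include viral miRNA probes and probes that no sample of a comparison had above its limit. Over the probes detected in at least 1 sample of the groups compared, the medians were -1.04 and -0.44. These counts and medians are a description, and no test set the members against the other probes. The size of these differences from NMG depended on how lanes were scaled. In carcinoma miR-26a ran from -3.56 with no scaling to -1.55 with the 100 most abundant miRNAs, miR-26b from -3.71 to -1.69 and miR-101b from -2.83 to -0.82 on the log2 scale. In EMT-like areas the same settings gave -2.79 to -0.95 for miR-26a, -3.70 to -1.86 for miR-26b and -2.70 to -0.87 for miR-101b. With scaling by the miRNA total the median of all probes moved to -0.32 for carcinoma and to 0 for EMT-like areas, and the calls became 98 lower and 46 higher for carcinoma, with 2 members among them, and 92 lower and 49 higher for EMT-like areas, with 1 member. With no scaling they were 289 lower and 5 higher for carcinoma and 201 lower and 10 higher for EMT-like areas. All 4 members remained lower than NMG in both comparisons under every scaling, and miR-26b was called under each (limma, with a highest adjusted p of 0.0354 for carcinoma and 0.0115 for EMT-like areas over the alternatives). The calls of miR-26a, miR-101a and miR-101b depended on NMG replicate 2. Without that sample the log2 fold change of miR-26a moved to -1.29 in carcinoma and -0.89 in EMT-like areas, while that of miR-26b was -2.21 and -2.59.

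**Figure D2:**
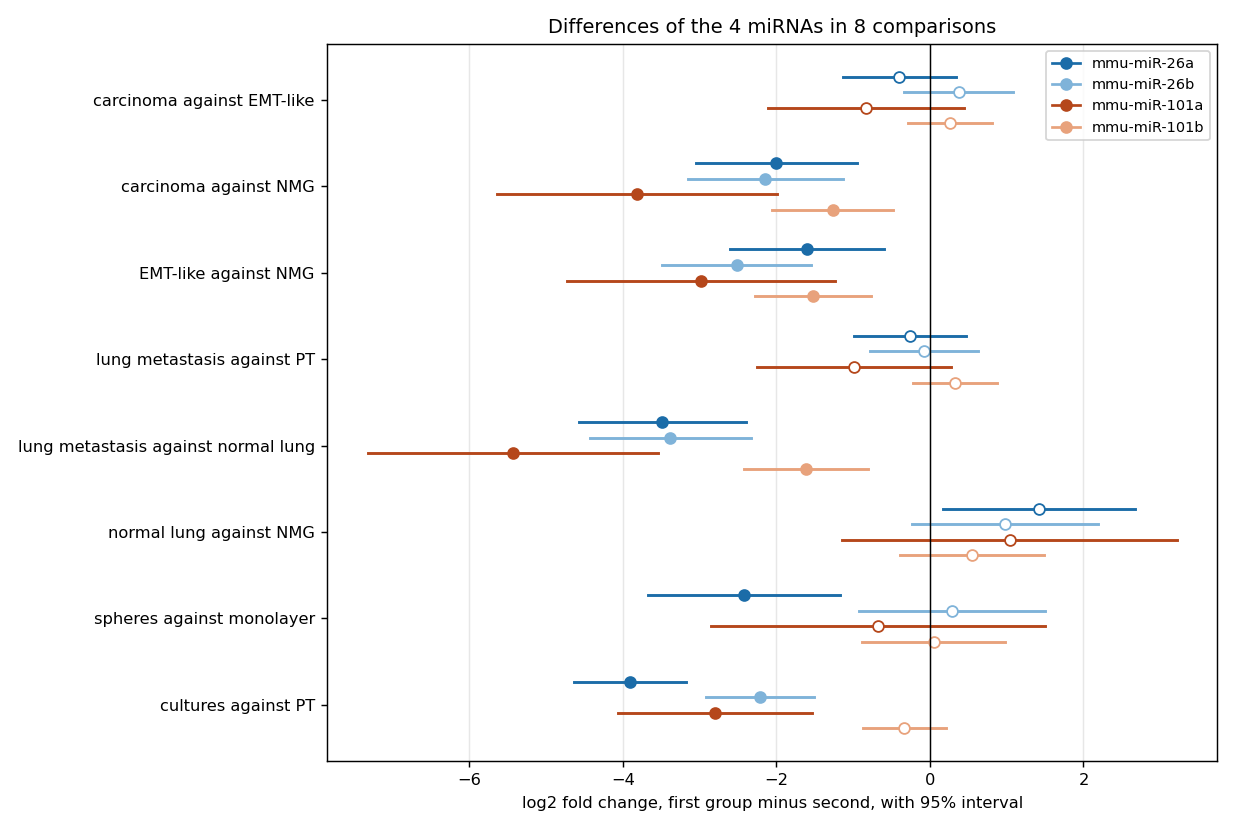
Log2 fold changes (x axis, first group minus second) with 95% intervals for each miRNA in 8 comparisons (y axis), with filled points where the adjusted p in limma is under 0.05. All 4 miRNAs lie below 0 in both comparisons of PT areas with NMG and in lung metastasis against normal lung. The points of miR-101a in lung metastasis against normal lung, and of miR-26a and miR-101a in the culture comparisons, rest on values under the detection limit.

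Carcinoma and EMT-like areas were compared to ask whether the members follow the histology within PT. None of the 4 was called, and 0.172% of all probes were called in this comparison (1 of 583, with 81 at an unadjusted p under 0.05). The log2 fold change of carcinoma against EMT-like areas was -0.40 for miR-26a (95% interval -1.13 to 0.34, adjusted p in limma = 0.666) and 0.38 for miR-26b (-0.33 to 1.09, adjusted p = 0.669). It was -0.83 for miR-101a (-2.11 to 0.44, adjusted p = 0.580) and 0.25 for miR-101b (-0.29 to 0.80, adjusted p = 0.721). The ranges overlapped for every member, and the intervals leave room for changes of over 2-fold in miR-26a, miR-26b and miR-101a. In animals labelled with letters (3 carcinoma, 2 EMT-like) the difference was -0.29 for miR-26a, 0.14 for miR-26b, -1.74 for miR-101a and -0.41 for miR-101b on the log2 scale. In animals labelled with numbers (2 and 5) it was -0.39, 0.36, 0.03 and 0.56 in the same order, so miR-101a and miR-101b changed sign between the series.

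Lung metastasis was compared with PT to ask whether the members change as the tumor spreads, with carcinoma and EMT-like areas weighted equally. None of the 4 was called, and 2.74% of all probes were. The metastases measured 25.0, 21.0, 25.7 and 45.1 for miR-26a and 159, 124, 89.8 and 108 for miR-26b, all within the range of PT. Their values were 1.32, 3.82, 7.70 and 2.91 for miR-101a, all under the limit, and 43.5, 47.7, 62.9 and 43.7 for miR-101b. The log2 fold change was -0.26 for miR-26a (95% interval -0.99 to 0.46, adjusted p in limma = 0.926), -0.07 for miR-26b (-0.78 to 0.63, adjusted p = 1) and 0.33 for miR-101b (-0.22 to 0.87, adjusted p = 0.733). For miR-101a, detected in 5 of 12 PT areas and in 0 of 4 metastases, the limits of the metastasis lanes allow no fold change, and it was not called (adjusted p = 0.525). Within the series of animals labelled with numbers (3 metastases, 7 PT areas) the differences were -0.36, 0.00, -0.93 and 0.60 for miR-26a, miR-26b, miR-101a and miR-101b. The lettered series holds 1 metastasis.

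Against normal lung, the organ in which they grew, all 4 members were called lower in lung metastasis, where 49.2% of all probes were called. Normal lung measured 322 and 325 for miR-26a, and the log2 fold change was -3.49 (SE 0.52, adjusted p in limma = 1.15e-05), or 11.2-fold lower. For miR-26b normal lung measured 1205 and 1265, and the log2 fold change was -3.38 (SE 0.51, adjusted p in limma = 1.14e-05), or 10.4-fold lower. Both replicates of normal lung were close after scaling, although their deposited values differed, 520 and 1829 for miR-26a and 1946 and 7125 for miR-26b.

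For miR-101a normal lung measured 178 and 203 and no metastasis was detected. Under TMM scaling miR-101a was at least 12.5-fold lower, computed against the detection limit of each metastasis lane (adjusted p in limma = 4.53e-05). The bound was not computed under the other scalings. For miR-101b normal lung measured 153 and 151, and the log2 fold change was -1.62 (SE 0.39, adjusted p in limma = 0.00195), or 3.07-fold lower. The sizes varied with the scaling, from the mRNA control probes to the 100 most abundant miRNAs. The log2 fold change ran from -5.97 to -1.99 for miR-26a and from -5.88 to -1.88 for miR-26b, and the fitted value of miR-101a from -7.86 to -3.93, and these 3 were called under every scaling. That of miR-101b ran from -4.11 to -0.13. Its call alone was lost on scaling by the 100 most abundant miRNAs (log2 fold change -0.13, adjusted p in limma = 0.844) or by the miRNA total (-0.16, adjusted p = 0.798). The median log2 fold change was -3.43 over the members and -0.90 over all probes. It was -1.35 over the probes detected in at least 1 sample of these groups. With the miRNA total the median of all probes was -0.16, and the split of calls went from 246 lower and 41 higher to 145 lower and 92 higher, and with the mRNA control probes it was 386 lower and 3 higher. Without normal lung replicate 2 the calls were 135 lower and 16 higher, with all 4 members among them.

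The change from normal lung to metastasis was set against the change from NMG to PT in the same fit. The difference of the log2 changes, lung less mammary, was -1.68 for miR-26a (SE 0.70, adjusted p in limma = 0.135), -1.05 for miR-26b (adjusted p = 0.391), -2.03 for miR-101a (adjusted p = 0.330) and -0.22 for miR-101b (adjusted p = 0.868). None was called, while 66 of 583 probes were.

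Normal lung and NMG were compared to set the tissue baselines side by side. The 4 normal samples carry 2 source numbers, each shared by a lung and an NMG sample, and the main fit took them as independent. None of the 4 members was called, and 11.7% of all probes were. Both lung samples lay above both NMG samples for each member, but how many of all probes did so was not counted. The log2 fold change of normal lung against NMG was 1.42 for miR-26a (95% interval 0.17 to 2.67, adjusted p in limma = 0.122), 0.97 for miR-26b (-0.24 to 2.19, adjusted p = 0.335), 1.04 for miR-101a (-1.14 to 3.22, adjusted p = 0.613) and 0.55 for miR-101b (-0.39 to 1.48, adjusted p = 0.527). The sign of miR-101b turned with the 100 most abundant miRNAs (-0.33) and the miRNA total (-0.32), and miR-26a was called with a pseudocount of 10 (adjusted p = 0.0240) and with scaling by the 4 mRNA control probes (adjusted p = 0.0246).

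JygMC(A) cells in culture were compared with the PT that they form. In the cultures, 3 of the 4 members were called lower than in PT, where 30.4% of all probes were called. For miR-26b the monolayer samples measured 63.7 and 8.15 and the spheres 36.6 and 22.3, against 76.9 to 217 in PT with a median of 114. Every culture lay below every PT area, with a log2 fold change of -2.22 (SE 0.34, adjusted p in limma = 1.69e-05), or 4.65-fold lower, although 2 of the 4 cultures were under the limit. The share of all probes that separated cultures from PT in this way was not computed. Over the scalings the log2 fold change of miR-26b ran from -3.07 with none to -1.05 with the 100 most abundant miRNAs, and the higher background (2 further SD taken off) gave -4.75, with a call in each. Culture values of miR-26a were 1.55 and 10.2 for monolayers and 0 for both sphere samples, against 17.7 to 56.7 in PT with a median of 32.8. All 4 cultures were under the limit, and so was carcinoma replicate 1 on the side of PT. The call of miR-26a (adjusted p in limma = 7.30e-09) therefore gives no bound on the fold change.

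The other call, that of miR-101a (adjusted p in limma = 0.000937), allows no fold change, since it was under the limit in all cultures and in 7 of 12 PT areas. It was lost with the higher background (adjusted p in limma = 0.597). The exception was miR-101b, which measured 23.3 and 38.7 in monolayers and 27.9 and 34.7 in spheres. These values overlapped PT, which ran from 19.0 to 66.1, with a log2 fold change of -0.33 (95% interval -0.87 to 0.21, adjusted p in limma = 0.409). The direction for miR-101b depended on the scaling. It was higher in cultures with the 100 most abundant miRNAs (log2 fold change 0.85, adjusted p in limma = 0.0180) and the miRNA total (0.72, adjusted p = 0.0409), and lower with no scaling (-1.21, adjusted p = 0.00511) and with the higher background (-3.02, adjusted p = 1.45e-05). The other 3 members were lower under every scaling. Of all probes called in cultures against PT, 71.8% were lower, against 38.5% with the miRNA total and 97.4% with no scaling.

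Between spheres and monolayer 1 of the 4 members was called, and 4.63% of all probes were. This was miR-26a (adjusted p in limma = 0.0202), which no culture had above its detection limit, with deposited values of 1 and 5 in the monolayer and -1 in both sphere samples, so no fold change is given. The call was lost with no scaling, with the mRNA controls, with the higher background, with a pseudocount of 10, with the 4 cultures fitted alone and with the culture number as a fixed block (adjusted p = 1). It was also lost without monolayer replicate 2 (0.239), sphere replicate 1 (0.0912) or sphere replicate 2 (0.109). The log2 fold change of spheres against monolayer was 0.28 for miR-26b (95% interval -0.93 to 1.50) and 0.05 for miR-101b (-0.89 to 0.98), and neither was called (adjusted p = 1 for each). Monolayer replicate 1 was the only monolayer sample with miR-26b above its limit, and without it miR-26b was called higher in spheres (log2 fold change 1.69, adjusted p = 0.0355, limma).

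**Figure D3:**
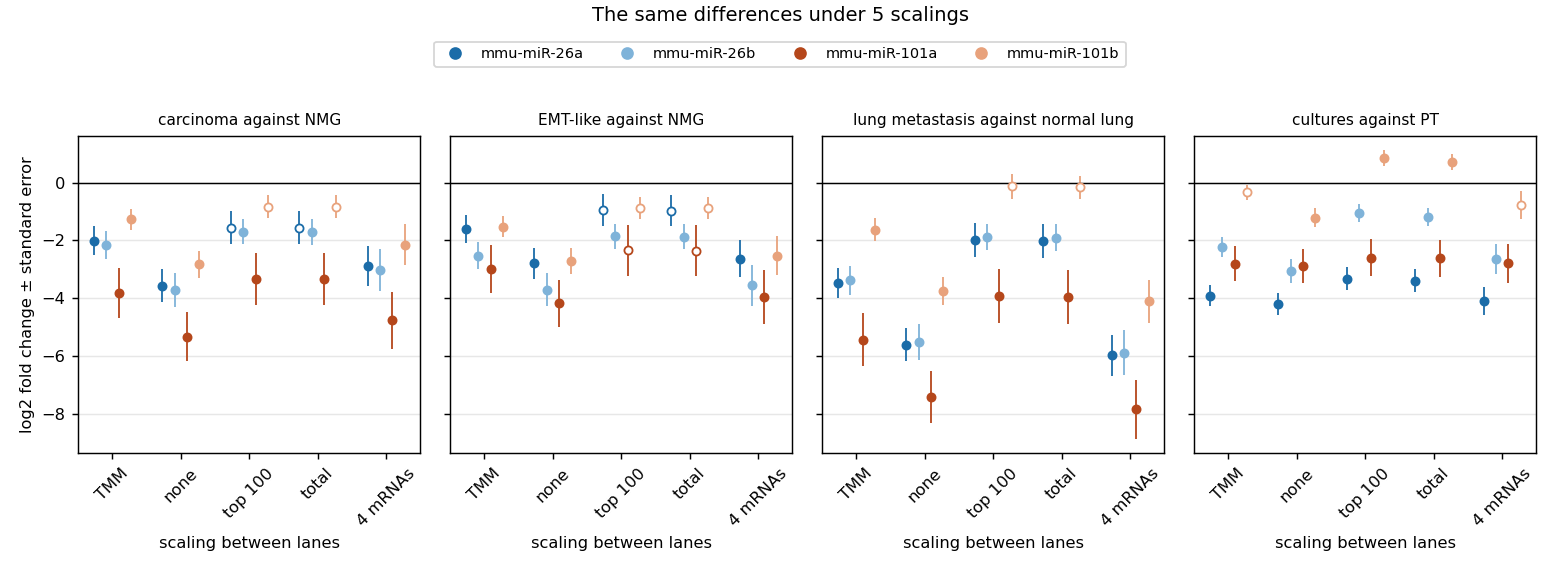
Log2 fold changes with standard errors (y axis) for 4 comparisons under 5 ways of scaling the lanes (x axis), with filled points where the adjusted p in limma is under 0.05. The 4 miRNAs stay below 0 against NMG and normal lung in each scaling, with miR-101b nearest to 0 in lung, while in cultures against PT the sign of miR-101b changes with the scaling.

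The paralogs were next compared within lanes, which needs no scaling. Probes may count their targets with unequal efficiency, so a ratio has meaning only against the same ratio in another group. The ratio was taken on deposited values floored at 0, plus 1. For miR-101a over miR-101b the log2 ratio was 0.32 ± 0.14 (SD, n = 2) in normal lung and -0.17 ± 0.22 (SD, n = 2) in NMG. Both probes were detected in 4 of 7 EMT-like areas, 1 of 5 carcinoma areas and 0 of 4 metastases, so most tumor ratios can be given only as upper bounds. The mean log2 ratio moved from -1.65 to -1.13 in EMT-like samples and from -2.68 to -1.53 for carcinoma when the pseudocount was raised from 1 to 10. With each undetected miR-101a value set at the limit of its lane, the log2 ratio lay below the lower NMG sample (-0.33) in all 5 carcinoma areas, 6 of 7 EMT-like areas and all 4 metastases. The highest of these bounds were -0.57 in carcinoma and -0.44 in lung metastasis. The exception was EMT-like replicate 4, where both probes were detected and the ratio was -0.29.

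For miR-26a over miR-26b the groups of tissue overlapped. The log2 ratio was -1.46 ± 0.51 (SD, n = 7) in EMT-like samples, -2.01 ± 0.64 (SD, n = 4) in lung metastasis, -2.23 ± 0.68 (SD, n = 5) in carcinoma, -1.93 ± 0.04 (SD, n = 2) in normal lung and -2.38 ± 1.11 (SD, n = 2) in NMG. The NMG samples alone spanned -3.17 to -1.59, which covers the means of carcinoma, lung metastasis and normal lung. These ratios were described and not tested.

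**Figure D4:**
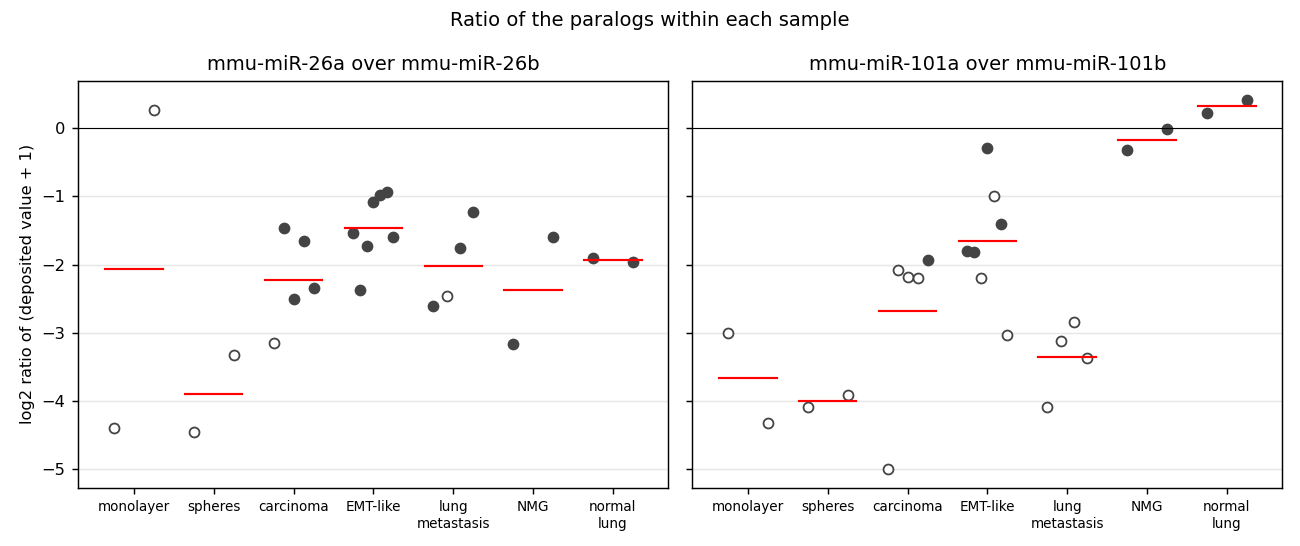
Log2 ratio of the deposited value + 1 of the paralogs within each lane (y axis) by group (x axis), with filled points where both probes are above the detection limit and red lines at group means. For miR-101a over miR-101b the 4 normal samples lie between -0.33 and 0.42, and 15 of the 16 tumor areas lie below them. For miR-26a over miR-26b the groups of tissue overlap.

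Levels of the members followed each other across the series. Over the 24 samples, Pearson's r on the log2 scale ran from 0.678 between miR-26a and miR-101b to 0.848 between miR-26a and miR-101a. These points share lanes and scaling, and the groups lie apart, so the values describe the difference between tissues. Within the 12 PT areas r was 0.818 between miR-26a and miR-101a and 0.556 between miR-26b and miR-101b, while it was -0.18 between miR-26a and miR-26b. It was 0.348 between miR-101a and miR-101b, -0.01 between miR-26b and miR-101a and -0.09 between miR-26a and miR-101b. The PT areas with higher miR-26a thus had higher miR-101a values, of which 7 of 12 lie under the limit, and not higher miR-26b. Carcinoma replicate 1 was the lowest PT area for both miR-26a (17.7) and miR-101a (0), under the limit for each. Several PT areas also share an animal.

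The 3 probes nearest to each member over the 24 samples, among 195 or 196 mouse miRNAs detected in at least 12 lanes, were as follows. For miR-26a they were miR-30e (Pearson's r = 0.925), miR-1902 (0.923) and miR-126-5p (0.922), the last from the endothelial miR-126 hairpin. For miR-26b they were miR-151-5p (0.944), miR-30c (0.933) and let-7g (0.933). For miR-101a they were miR-322 (0.908), miR-29c (0.887) and miR-1902 (0.866), and for miR-101b miR-29c (0.857), miR-30b (0.839) and miR-30a (0.835). Members of the miR-30 family were thus among the nearest probes of miR-26a, miR-26b and miR-101b.

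EZH2 has been described as a target of other miRNAs, and 17 of these on the panel were listed, namely let-7 members with miR-98, and miR-25, miR-30d, miR-124, miR-137, miR-138, miR-144, miR-214 and miR-217. Of these, 16 entered the tests. In carcinoma against NMG 2 of the 16 were called higher and 3 lower, with a median log2 fold change of -0.28, where 5.49% of all probes were called higher and 23.8% lower. In EMT-like areas 1 was called higher and 4 lower, with a median of -0.31, where 4.46% of all probes were called higher and 20.4% lower. The lower calls of the list were thus near the background in both, and no test set the list against the miR-26 and miR-101 members. The higher calls were let-7 members, a family that blocks growth-promoting messages. NMG had 727 ± 52.2 (SD, n = 2) of let-7e against 1843 ± 305 (SD, n = 5) for carcinoma, so its log2 fold change was 1.33 (adjusted p in limma = 0.000268), and that of EMT-like areas was 1.26 (adjusted p = 0.000290). The log2 fold change of let-7b was 0.69 in carcinoma (adjusted p in limma = 0.0217) and 0.55 in EMT-like areas (adjusted p = 0.0631).

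Of the lower calls the largest was miR-144, an erythroid miRNA with a seed that differs from that of miR-101a at 1 base.
mmu-miR-144: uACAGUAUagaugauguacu
It measured 734 ± 337 (SD, n = 2) in NMG and was under the limit in all 5 carcinoma areas. There miR-144 was at least 38.3-fold lower under TMM scaling, the only scaling for which the bound was computed (adjusted p in limma = 2.00e-06). It was detected in 1 of 7 EMT-like areas (adjusted p = 4.06e-06). The next, miR-137, was called in both but lay under the limit in all tumor areas and both samples of NMG, and no fold is printed. The remaining lower calls were miR-30d in both areas (log2 fold change -1.01 for carcinoma and -1.50 for EMT-like areas) and let-7g in EMT-like areas (-1.25). In lung metastasis against normal lung 6 of the 16 were called lower and 0 higher, where 42.2% of all probes were called lower and 7.03% higher. In cultures against PT 10 were called lower and 0 higher, where 21.8% of all probes were called lower and 8.58% higher.

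**Figure D5:**
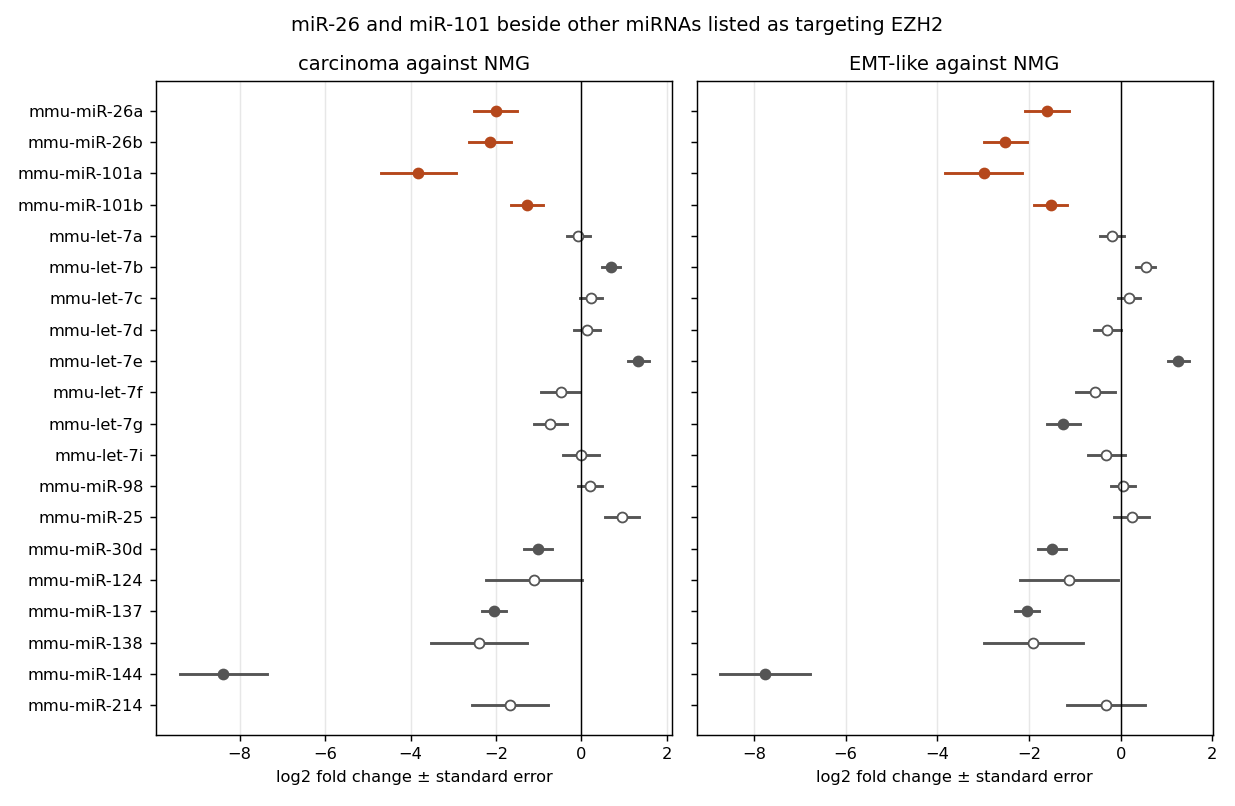
Log2 fold changes with standard errors (x axis) in carcinoma and EMT-like areas against NMG for the miR-26 and miR-101 members (orange) and 16 other miRNAs described as targeting EZH2 (gray), with filled points where the adjusted p in limma is under 0.05. The 4 members are all filled and below 0, while the let-7 members lie on both sides of 0, and the fitted point of miR-144 rests on carcinoma values under the limit.

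Markers of other cell types were read in the same comparisons, and the lists differed in how many of their markers were called and in which direction. In laser captured tissue fewer cells of a type and less RNA per cell cannot be told apart. The summed normalized level of the endothelial markers miR-126-3p and miR-126-5p was 1067 to 1894 across carcinoma, 1314 to 2626 across EMT-like areas, 819 to 3114 across metastases, 10971 to 17649 in NMG, 67772 to 70141 in normal lung and 0 in all cultures. Both were called lower in either PT area against NMG, in lung metastasis against normal lung and in cultures against PT. The erythroid sum of miR-144, miR-451 and miR-486 was 83.7 to 225 across carcinoma, 92.6 to 297 across EMT-like areas, 348 to 533 across metastases, 8118 to 8509 in NMG and 49121 to 55994 in normal lung, and all 3 were called lower in each comparison of tumor with its normal tissue.

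The fibroblast sum of miR-199a-3p, miR-199a-5p and miR-214 was 882 to 1885 across carcinoma, 1093 to 2844 across EMT-like areas, 230 to 995 across metastases, 8645 to 9125 in NMG, 4459 to 4617 in normal lung and under the limit for each marker in the cultures, and 2 of its 3 markers were called lower in each tumor comparison with normal tissue. The smooth muscle sum of miR-143 and miR-145 was 765 to 1689 across carcinoma, 766 to 1328 across EMT-like areas, 688 to 1086 across metastases, 6039 to 7591 in NMG and 9932 to 13953 in normal lung, and both were called lower in these comparisons. The sum of 5 immune markers (miR-142-3p, miR-142-5p, miR-150, miR-155 and miR-223) was 572 to 1243 across PT areas, 870 to 1634 across metastases, 2628 to 5720 in NMG, 4834 to 6181 in normal lung and 764 to 1130 in cultures. Of these markers, 3 were called lower in each, and EMT-like areas had 1 called higher, carcinoma 2 and lung metastasis 2. Of 4 striated muscle markers (miR-1, miR-133a, miR-133b and miR-206), EMT-like areas had 1 called lower, carcinoma 2 and lung metastasis 3. Their sum was 10.5 to 75.2 across PT areas, 19.1 to 39.5 across metastases, 585 to 1724 in normal lung, 104 to 169 in cultures, 1027 in NMG replicate 1 and 44.5 in NMG replicate 2. The endothelial, immune and fibroblast sums were also higher in NMG replicate 1, and the erythroid, smooth muscle and epithelial sums in NMG replicate 2. Of the members, miR-26a, miR-101a and miR-101b were higher in NMG replicate 2.

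Of 7 epithelial markers (the miR-200 family, miR-203 and miR-205), EMT-like areas had 4 called lower than NMG, carcinoma 1, and lung metastasis 1 against normal lung. All 7 were detected in at least 1 sample of each tissue group, while the 5 members of the miR-200 family were undetected in the cultures. The epithelial sum was 930 to 5385 for carcinoma, 59.4 to 1758 for EMT-like areas, 2509 to 4671 for metastases, 2925 to 4061 in NMG, 5068 to 6063 in normal lung and 54.5 to 112 in cultures. In cultures against PT the lists had 2 of 2 endothelial, 2 of 3 erythroid, 2 of 2 smooth muscle, 2 of 3 fibroblast and 5 of 7 epithelial markers called lower, 2 of 4 striated muscle markers called higher, and of 5 immune markers 2 called higher and 2 lower. The part of these cell types in the levels of the miR-26 and miR-101 members was not tested.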

How the data were processed

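MicroRNA from 24 samples was counted with nCounter Mouse miRNA Expression Assays (NanoString Technologies). Per the labels, tissue was laser captured and RNA purified with the miRNeasy Micro Kit. The labels name Partek without a version or a role, and no scaling of this assay was given in the sources used here. The deposited values, treated as a score, are whole numbers from which each lane lost the average of its 6 negative controls. Of the miRNA values 35.2% are negative, down to -20. Lanes had not been scaled, and positive control A lay between 7950 and 11435. No count model was fitted to these values.

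Values were floored at 0, scaled by TMM (trimming 30% by log ratio and 5% by level), and log2(value + 1) was fitted with limma 3.58.1 in R 4.3.3 (lmFit, eBayes with trend), with 7 groups and 24 samples in 1 fit. Probes above 0 in at least 1 sample (583) were adjusted by the Benjamini-Hochberg method within each of 8 comparisons. Bounds of folds and, added after the data were seen, of paralog ratios set each lane under its limit at that limit. Figures were drawn in Python 3.11.15. The procedure was tested on simulated counts without background subtraction, which does not cover values near or under the detection limit. The members, the lists and the comparisons were chosen with earlier results of these data known. The rule for named miRNAs took the 4 members, the 3 probes with the highest Pearson's r to each, and up to 2 miRNAs of the EZH2 list called in each direction against NMG. Others of that list were named to complete small counts, after their values were seen.

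Alternatives changed the scaling (none, the sum of the 100 most abundant miRNAs, the miRNA total, or 4 mRNA control probes), kept probes at 20 or more in 2 or more samples, took off 2 further SD of the negative controls and set a floor of 1 (the higher background), or raised the pseudocount to 10. Others fitted the compared groups alone, took the animal or culture number as a random block or the animal series as a term, or omitted samples singly. A fixed block was added after the data were seen. Labels tie samples to animals, and deviations from group means correlated with a median r of 0.103 (range -0.307 to 0.295) over 10 pairs from the same animal and 196 probes. For pairs from different animals the median r was 0.237 in the lettered series (7 pairs) and 0.065 in the numbered series (25 pairs). Replicate lanes had at most 9.18% of their values in common.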

Additional observations from a re-analysis of the deposited data

How the results depend on the processing

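Over 608 values of members under alternative settings, 552 kept their direction and their side of the threshold, 27 lost a call, 5 gained a call and 24 changed sign. A value that changed sign is counted there alone, also where its call changed, as for miR-101b in cultures against PT. The number of members called fell from 4 to 2 in carcinoma against NMG and from 4 to 1 in EMT-like areas against NMG, on scaling by the top 100 miRNAs or by the total. Leaving out any single tumor area kept 4 in both, while the calls of miR-26a, miR-101a and miR-101b depended on NMG replicate 2. In normal lung against NMG the number rose from 0 to 1 with the mRNA controls and with a pseudocount of 10. In spheres against monolayer it fell from 1 to 0 with no scaling, the mRNA controls, the higher background, a pseudocount of 10, only those groups and the fixed block, and ran from 0 to 2 without single samples. In lung metastasis against normal lung the number fell from 4 to 3 with the top 100 and the total. In cultures against PT it rose from 3 to 4 with no scaling, the top 100 and the total, where miR-101b gained a call. That call was lower with no scaling and higher with the top 100 and the total. The number stayed at 3 with the higher background, where miR-101a lost its call and miR-101b gained one. The cause was not tested.

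The animal or culture number as a random replicate block (consensus correlation -0.01) gave 4, 4, 4 and 3 members called for carcinoma and EMT-like areas against NMG, lung metastasis against normal lung and cultures against PT, 1 for spheres against monolayer and 0 for the other 3 comparisons, and changed no call. As a fixed block it gave 0 members in carcinoma against EMT-like areas, lung metastasis against PT, normal lung against NMG and spheres against monolayer. With the random block the calls over all probes were 138 lower and 32 higher for carcinoma and 118 and 26 for EMT-like areas against NMG. They were 246 and 41 for lung metastasis against normal lung, 127 and 50 for cultures against PT, and 10 and 17 for spheres against monolayer.

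Signs that changed belonged to members that were not called, apart from miR-26a in spheres. In carcinoma against EMT-like areas miR-26b became -0.010 with no scaling and -0.052 with the higher background, and miR-101b -0.13 and -0.38. In lung metastasis against PT miR-101b became -0.19 with no scaling and -0.12 with the higher background, and miR-26b 0.0074 with the series as a term, 0.045 with the fixed block and -0.22 to 0.054 without single samples. In normal lung against NMG miR-101b became -0.33 with the top 100 and -0.32 with the total. In cultures against PT it became 0.85 and 0.72. In spheres against monolayer miR-101b became -0.16 with no scaling, -0.17 with the top 100 and -0.20 with the total, and the higher background gave 0.028 for miR-26a and miR-101a and -1.57 for miR-26b. Without single samples miR-26b ran from -1.13 to 1.69 and miR-101b from -0.31 to 0.40 there. Where a group was left with 1 sample, it was assumed to vary like the others.

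With 2 samples in each normal and culture group, precision is low. Values of miR-101a in tumors and of every member in cultures lie near or under the background, where scaling and pseudocount set the fold change.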
